A study of Rattus norvegicus with 20 samples.

Results

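The 25 miRNAs described here come from the imprinted Dlk1-Dio3 domain of rat chromosome 6, and they were chosen by name: every mature miRNA listed in any library whose family is miR-770, miR-673, miR-493, miR-337, miR-540, miR-665, miR-431, miR-433, miR-127, miR-434, miR-136, miR-341, miR-1188 or miR-370. They are 25 of the 617 miRNAs with reads in the series. Of these, 23 were among the 500 miRNAs that passed the filter of at least 10 counts in at least 5 libraries. The other members were miR-1188-3p, with 20 reads in 2 libraries, and miR-540-5p, with 76 reads in 8 libraries. Each count is the sum of all reads, of whatever exact length, assigned to a mature miRNA.

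Small RNA was sequenced from the adBNST, the anterodorsal part of the bed nucleus of stria terminalis, a forebrain region of the extended amygdala that takes part in sustained fear and anxiety. The tissue came from 20 rats of the Sprague-Dawley strain, 5 to a group, and each rat gave 1 library. The sequenced females were picked for high RNA integrity and to span low to high estradiol. The paper states no such choice for males. Socially isolated (SI) rats lived alone from weaning on postnatal day 21, and group-housed (GH) rats lived 3 littermates of one sex to a cage. After 6 weeks of this housing, at 9 weeks of age, every rat of all groups went through the elevated plus maze before the brain was frozen and punched, so the GH rats carry that test too. Males and females of both housings made up the 4 groups, and no rat carried a transgene or a drug treatment in the labels. Below, a rat is named by G or I for its housing, its animal number and M or F for its sex. The question is how adolescent isolation moved these miRNAs in each sex.

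Libraries held between 3428930 and 11383055 reads assigned to miRNAs, and 3.07% to 5.17% of the assigned reads in a library belonged to the 25 members. This share averaged 3.78% ± 0.433 (SD, n = 5) in GH males, 4.28% ± 0.812 in SI males, 3.68% ± 0.317 in GH females and 3.93% ± 0.302 in SI females. No member read was assigned to a second miRNA as well. The lowest count listed in a file was 2, so a value of 0 means fewer than 2 reads of any single form. Some libraries need care. Names of the deposited files give the 2 I17 rats the sex opposite to their labels, and I16F had reads of 19 members where the other libraries had 22 to 25. Counts of called members without these rats are given below, as are the arm ratios that they moved. Markers of other cells also moved with housing. Summed CPM (the counts-per-million scale, with library sizes adjusted by the TMM method) of 4 miRNAs of vascular smooth muscle and pericytes, miR-143 and miR-145 among them, ran from 9477 to 14377 in GH males and from 4090 to 6582 in SI males, and from 9996 to 19861 in GH females and from 2117 to 13870 in SI females. Of these 4, 1 passed the test, lower in SI rats, in males and in the mean of both sexes. The 2 endothelial miR-126a arms summed to 880 to 1231 CPM in GH males and 259 to 698 in SI males, and to 947 to 2234 in GH females and 79.9 to 1096 in SI females. 1 of them was called lower in the mean of both sexes. The 7 neuronal miRNAs were all tested and none was called, at a sum of 41843 to 94129 CPM over the 20 rats. Of 5 oligodendrocyte miRNAs 1 was called higher in males, and 1 higher and 1 lower in the mean, and 4 of 7 choroid plexus miRNAs were tested with 0 called, although their sum reached 18623 CPM in 1 SI male. Summed myeloid miRNAs lay between 0 and 51.1 CPM and summed red blood cell miRNAs between 0 and 36.3 CPM. The part of these other cells in the results below was not tested, and in punches of tissue fewer cells of a type and less RNA per cell cannot be told apart.

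A miRNA gene is transcribed as a long RNA from which a hairpin is cut out, and the stem of the hairpin gives a mature miRNA from its 5′ arm (5p) and another from its 3′ arm (3p). Usually Argonaute keeps a single strand and the other is mostly lost, so the arms often differ widely in level. The kept miRNA finds messenger RNAs mainly through its seed, bases 2 to 8 from the 5′ end, so a shift of the 5′ end gives another seed. In the Dlk1-Dio3 domain the maternal chromosome expresses Meg3, the RNA antisense to Rtl1, and the miRNAs cut from these transcripts, whereas the protein-coding Dlk1, Rtl1 and Dio3 are expressed from the paternal one. The miRNAs antisense to Rtl1 pair fully with the Rtl1 messenger RNA, and the domain is strongly expressed in brain.

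All 14 genes are annotated in RefSeq on the plus strand of GRCr8, chr6:134298084-134354569, a run of 56486 bases. Their order is Mir770, Mir673, Mir493, Mir337, Mir540 and Mir665 (here the upstream group), then Mir431, Mir433, Mir127, Mir434 and Mir136 (the anti-Rtl1 group), then Mir341, Mir1188 and Mir370 (the downstream group). Mir770 lies inside the span of the noncoding gene Meg3, and the 5 genes of the anti-Rtl1 group lie inside that of Rtl1. RefSeq held a mature sequence for 23 of the 25 members, with 23 different seeds. Only miR-370-5p shared its seed with another tested miRNA, miR-1193-3p. Sequences are shown for 7 members that passed a test below and for the abundant arm of miR-127, with the seed in capitals, because the seed decides which messenger RNAs each can bind.
miR-770-3p: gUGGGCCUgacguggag
miR-665: aCCAGGAGgcugaggucccuua
miR-127-3p: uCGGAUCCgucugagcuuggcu
miR-434-5p: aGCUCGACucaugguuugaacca
miR-434-3p: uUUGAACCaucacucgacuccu
miR-136-3p: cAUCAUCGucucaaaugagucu
miR-341: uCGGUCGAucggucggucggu
miR-370-3p: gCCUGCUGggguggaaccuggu
In this order they lie at chr6:134298129-134298145, chr6:134321733-134321754, chr6:134328510-134328531, chr6:134330413-134330435, chr6:134330451-134330472, chr6:134331383-134331404, chr6:134347871-134347891 and chr6:134354538-134354559.
The hairpin of Mir434, chr6:134330402-134330482, is shown whole because its arms were called in opposite directions in males. Both mature arms are in capitals, 5p first.
Mir434: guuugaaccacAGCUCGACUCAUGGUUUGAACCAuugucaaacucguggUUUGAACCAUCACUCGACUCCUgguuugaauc

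In males, 4 members were lower and 1 was higher in SI than in GH rats (edgeR's quasi-likelihood test, Benjamini-Hochberg adjusted p under 0.05 over the 500 miRNAs). The lower ones were miR-341, miR-136-3p, miR-434-5p and miR-127-5p, and the higher one was miR-434-3p. These 5 of 23 tested members are 21.7%, where 4.0% of all tested miRNAs were called (1.4% higher and 2.60% lower in SI). In females 0 of 23 members passed edgeR's test, where 0.40% of all miRNAs did. Of the members, 8 had an unadjusted p under 0.05 in females, 4 higher and 4 lower in SI. Over all miRNAs, 20.8% had such a p. DESeq2's Wald test called 6 members in females, where it called 18.3% of the miRNAs to which it gave an adjusted p, and limma voom with sample quality weights called 0, beside 0.6% of all. Over the mean of the effects in both sexes, 9 of 23 members were called, 39.1% beside 17.6% of all miRNAs. Higher were miR-434-3p and miR-770-3p (7.40% of all miRNAs were called higher). The 7 lower members were miR-341, miR-136-3p, miR-434-5p, miR-127-5p, miR-370-3p, miR-665 and miR-136-5p (10.2% of all were called lower). The median log2 fold change over the 23 members was -0.14 in males, -0.03 in females and -0.08 in the mean, beside -0.01, -0.13 and -0.0046 over all 500 miRNAs.

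The interaction of housing and sex was called for 0 of 23 members by edgeR (0.40% of all miRNAs), and none had an unadjusted p under 0.05. DESeq2 and limma voom also called 0 members, beside 0.806% and 0.6% of all miRNAs given an adjusted p. The calls in males beside none in females were therefore not a difference between the sexes that passed the test. Females against males among GH rats gave 0 called members by edgeR, 0 by DESeq2 and 0 by limma voom. By edgeR, 0 members had an unadjusted p under 0.05. Of all miRNAs given an adjusted p, these methods called 0%, 0.605% and 0% in the same order.

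In males, SI and GH rats did not overlap at all for 9 of the 23 members, 8 lower and 1 higher in SI, where this held for 13.8% of all miRNAs. In females it held for 0 of 23 members and 2.0% of all miRNAs. With 5 rats against 5 the exact two-sided permutation test can give no p below 0.0079, which is the value of each of these 9 members.

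miR-434 of the anti-Rtl1 group, whose arms are printed above, showed the opposite movement of arms most plainly. CPM of miR-434-3p was 11336, 11451, 11764, 11901 and 13148 in the 5 GH males and 14068, 16751, 17155, 21883 and 26707 in the 5 SI males. Females held 9306, 9560, 11987, 14203 and 16870 CPM of miR-434-3p in the GH group and 14129, 15383, 15404, 17813 and 19690 in the SI group. Every SI male was above every GH male, and in females the groups overlapped. The fitted level of miR-434-3p in SI rats was 1.62 times that of GH rats in males (log2 fold change 0.70 ± 0.19 (SE), adjusted p = 0.039), 1.33 times in females (adjusted p = 0.21) and 1.47 times in the mean of both (log2 0.55 ± 0.14, adjusted p = 0.0088). The 3p arm is the abundant one and ranked 21 of the 500 miRNAs by level in GH rats. CPM of miR-434-5p was 410.8, 514, 527, 534 and 545 in the 5 GH males and 178, 189, 195, 309.9 and 359.5 in the 5 SI males. Females held 442, 449, 474, 564 and 744 CPM of miR-434-5p in the GH group and 111, 263, 337.8, 363 and 462 in the SI group. SI males all lay below the lowest GH male, and 4 of the 5 SI females lay below every GH female. The log2 fold change of miR-434-5p was -1.04 ± 0.29 in males (adjusted p = 0.042), -0.80 ± 0.29 in females (adjusted p = 0.11) and -0.92 ± 0.21 in the mean (adjusted p = 0.0058).

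miR-127, the next hairpin upstream, had the same shape. CPM of miR-127-5p was 598, 657, 799, 808 and 817 in the 5 GH males and 239, 241, 285, 404 and 489 in the 5 SI males. Females held 504, 596, 611, 694 and 772 CPM of miR-127-5p in the GH group and 163, 363, 596, 621 and 661 in the SI group. The 5 SI males were below the 5 GH males, and 3 of the 5 SI females fell within the GH range. The log2 fold change of miR-127-5p was -1.15 ± 0.29 in males (adjusted p = 0.023) and -0.78 ± 0.21 in the mean (adjusted p = 0.013), against -0.40 ± 0.29 in females (adjusted p = 0.47). CPM of miR-127-3p was 6018, 6328, 6420, 7235 and 7733 in the 5 GH males and 6846, 9649, 10210, 10730 and 11600 in the 5 SI males. Females held 5282, 6366, 7571, 7758 and 8044 CPM of miR-127-3p in the GH group and 6175, 6483, 7359, 7380 and 12706 in the SI group. In all, 4 SI males exceeded all GH males, and 1 SI female, I16F, exceeded all GH females. miR-127-3p, the abundant arm, did not pass the test, with a log2 fold change of 0.54 ± 0.20 in males (adjusted p = 0.11) and 0.37 ± 0.14 in the mean (adjusted p = 0.076).

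Both arms of miR-136, the last gene of the anti-Rtl1 group, were called lower in SI rats in the mean of both sexes. CPM of miR-136-3p was 930.1, 1097, 1327, 1705 and 1852 in the 5 GH males and 445, 451.4, 551, 554 and 609 in the 5 SI males. Females held 1122, 1295, 1388, 1417 and 1631 CPM of miR-136-3p in the GH group and 119, 494.6, 701, 958 and 1242 in the SI group. No SI male reached the lowest GH male, and I10F was the only SI female within the GH range. The log2 fold change of miR-136-3p was -1.40 ± 0.36 in males (adjusted p = 0.023), -0.96 ± 0.36 in females (adjusted p = 0.11) and -1.18 ± 0.25 in the mean (adjusted p = 0.0048). CPM of miR-136-5p was 75.0, 80.1, 82.5, 97.2 and 121 in the 5 GH males and 27.3, 27.5, 33.1, 48.6 and 52.3 in the 5 SI males. Females held 54.0, 106, 118, 221 and 315 CPM of miR-136-5p in the GH group and 0, 29.3, 64.6, 90.9 and 98.0 in the SI group. miR-136-5p had no reads in I16F and its males did not overlap. Its spread among GH females was wide and its log2 fold change of -1.40 ± 0.49 in the mean stood near the threshold (adjusted p = 0.049).

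**Figure D1:**
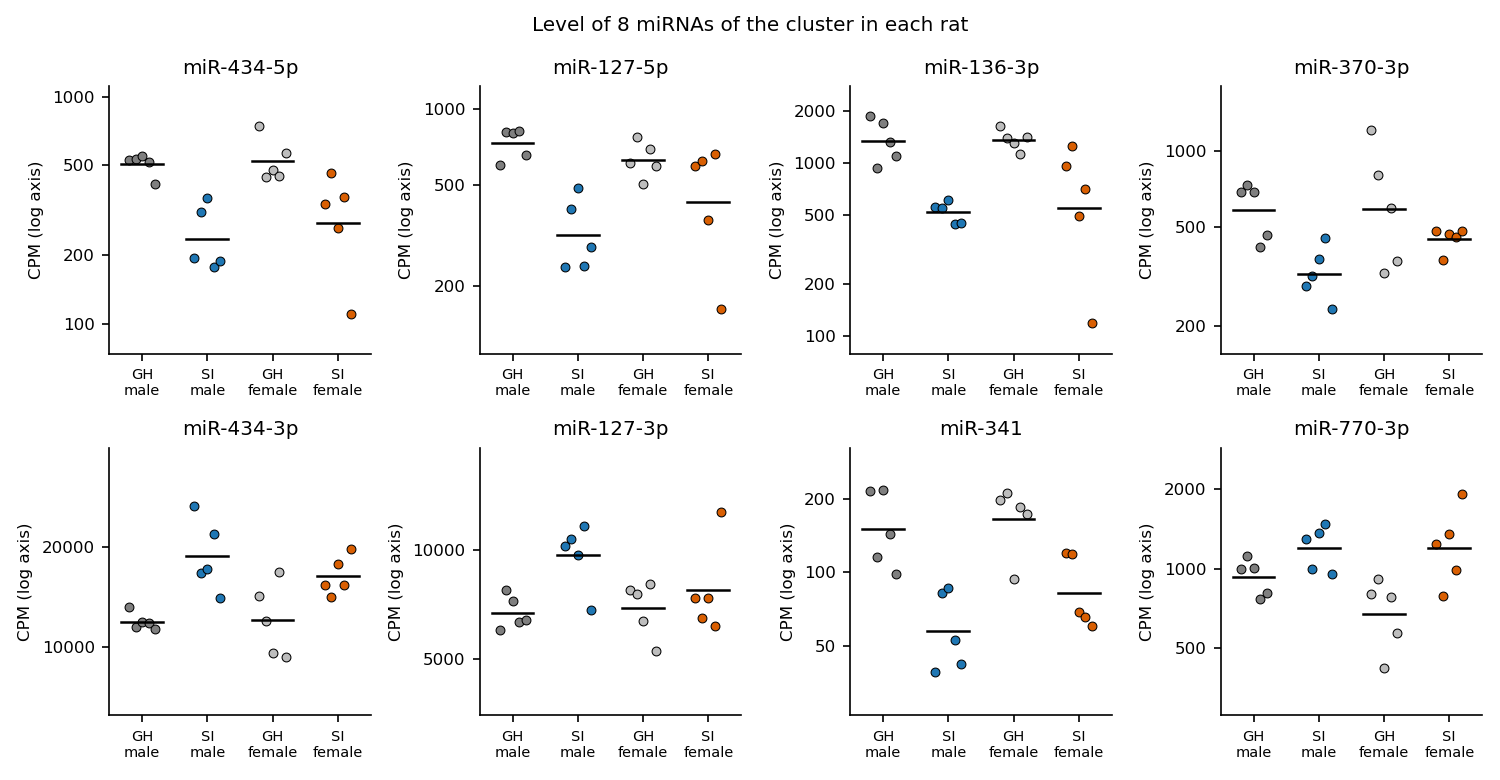
Level of 8 members in CPM (log axes) in each of the 20 rats, one point a rat, with the geometric mean of each group of 5 as a bar. In males the SI points of miR-434-5p, miR-127-5p, miR-136-3p and miR-341 all lie below the GH points and those of miR-434-3p all lie above them, and in females each panel shows overlap, with I16F as the lowest SI female for miR-136-3p at 119 CPM.

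The remaining anti-Rtl1 members were miR-433 and miR-431. CPM of miR-433-3p was 5992, 6515, 7273, 9513 and 10038 in the 5 GH males and 6293, 7263, 8960, 8960 and 9292 in the 5 SI males. Females held 3754, 4316, 6863, 7632 and 7688 CPM of miR-433-3p in the GH group and 7472, 8908, 9234, 9286 and 12090 in the SI group. The SI males lay within the range of the GH males, and in females 4 of 5 SI rats lay above all GH rats. The log2 fold change of miR-433-3p was 0.05 ± 0.22 in males and 0.64 ± 0.22 in females (adjusted p = 0.11), and the interaction of housing and sex had a log2 value of 0.58 ± 0.31 (adjusted p = 0.70). CPM of miR-433-5p was 98.6, 102, 111, 123 and 149.8 in the 5 GH males and 49.4, 49.7, 83.7, 94.7 and 95.5 in the 5 SI males. Females held 66.2, 95.3, 106, 108 and 119 CPM of miR-433-5p in the GH group and 28.6, 60.6, 88.1, 131 and 141.8 in the SI group. The 5 SI males were below the 5 GH males, with a log2 fold change of -0.65 ± 0.34 (adjusted p = 0.25), and the females overlapped. miR-431 ran from 428 to 917 CPM over all rats and did not pass in any comparison.

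Of the downstream genes, miR-341 had the lowest adjusted p of all members in males and in the mean of both sexes. CPM of miR-341 was 98.3, 116, 143.4, 217 and 218 in the 5 GH males and 38.8, 42.1, 52.6, 82.3 and 86.5 in the 5 SI males. Females held 93.8, 174, 186, 198 and 212 CPM of miR-341 in the GH group and 59.9, 65.3, 68.9, 119 and 119.6 in the SI group. Every SI male lay below every GH male, and in females 3 of 5 SI rats did so, while G16F was low among the GH females. The level of miR-341 in SI rats was 0.38 of that in GH rats in males (log2 -1.39 ± 0.32, adjusted p = 0.013), 0.50 in females (log2 -0.99 ± 0.32, adjusted p = 0.093) and 0.44 in the mean (log2 -1.19 ± 0.23, adjusted p = 0.0039). CPM of miR-370-3p was 414, 461, 685, 687 and 735 in the 5 GH males and 233, 289.8, 318, 372 and 451.1 in the 5 SI males. Females held 325, 363, 596, 807 and 1217 CPM of miR-370-3p in the GH group and 367, 456, 467, 481 and 482 in the SI group. A total of 4 SI males lay below all GH males, whereas the SI females fell inside the GH range. miR-370-3p was called in the mean of both sexes (log2 -0.70 ± 0.21, adjusted p = 0.024) with -0.84 ± 0.29 in males (adjusted p = 0.09) and -0.55 ± 0.29 in females. CPM of miR-1188-5p was 89.8, 92.5, 115, 125 and 148 in the 5 GH males and 89.7, 115, 116, 140.0 and 198 in the 5 SI males. Females held 50.5, 64.5, 77.3, 88.2 and 119.7 CPM of miR-1188-5p in the GH group and 89.8, 96.0, 118, 174 and 216 in the SI group. In females, 2 SI rats exceeded every GH rat and the males overlapped. The log2 fold change of miR-1188-5p was 0.79 ± 0.30 in females (adjusted p = 0.12) and 0.21 ± 0.30 in males (adjusted p = 0.81).

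Upstream, miR-770-3p and miR-665 passed in the mean of both sexes and 0 of the 10 tested upstream members passed in either sex alone. CPM of miR-770-3p was 767, 807, 996, 1007 and 1116 in the 5 GH males and 957, 999, 1294, 1363 and 1473 in the 5 SI males. Females held 419.6, 571, 784, 804 and 911 CPM of miR-770-3p in the GH group and 787, 987, 1238, 1354 and 1916 in the SI group. In each sex the highest values were those of SI rats, and the groups overlapped. For miR-770-3p the log2 fold change was 0.61 ± 0.17 in the mean (adjusted p = 0.016), 0.85 ± 0.24 in females (adjusted p = 0.084) and 0.37 ± 0.24 in males (adjusted p = 0.38). CPM of miR-665 was 55.1, 59.9, 72.5, 80.7 and 83.5 in the 5 GH males and 2.76, 4.12, 9.09, 30.4 and 51.8 in the 5 SI males. Females held 39.5, 63.9, 70.2, 81.9 and 99.6 CPM of miR-665 in the GH group and 5.18, 14.9, 15.1, 64.6 and 71.6 in the SI group. The SI males spread over more than a factor of 10 and all lay below the GH males, and 3 SI females lay below all GH females. The log2 fold change of miR-665 was -1.45 ± 0.47 in the mean (adjusted p = 0.04). CPM of miR-540-3p was 64.1, 77.6, 80.7, 95.5 and 96.7 in the 5 GH males and 82.7, 87.1, 119.5, 133 and 141.6 in the 5 SI males. Females held 51.4, 59.2, 77.1, 81.5 and 107 CPM of miR-540-3p in the GH group and 84.7, 90.7, 95.7, 103 and 105 in the SI group. miR-540-3p was at 0.40 ± 0.17 (log2) in the mean and was not called (adjusted p = 0.12).

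The 8 tested members not described so far did not pass in any comparison. Of these, miR-770-5p was the most abundant at 2122 to 4399 CPM, and miR-337-5p (242 to 455 CPM) and miR-493-5p (172 to 445 CPM) overlapped between housing groups in both sexes. The scarce members were miR-370-5p (9.15 to 43.0 CPM), miR-493-3p (0 to 42.3 CPM), miR-673-5p (0 to 38.3 CPM), miR-673-3p (0 to 13.1 CPM) and miR-337-3p (0 to 8.85 CPM). Among them only miR-673-5p separated the males, at 13.8 to 38.3 CPM in GH and 0 to 12.7 CPM in SI rats, with a log2 fold change of -1.38 ± 0.75 (adjusted p = 0.27).

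**Figure D2:**
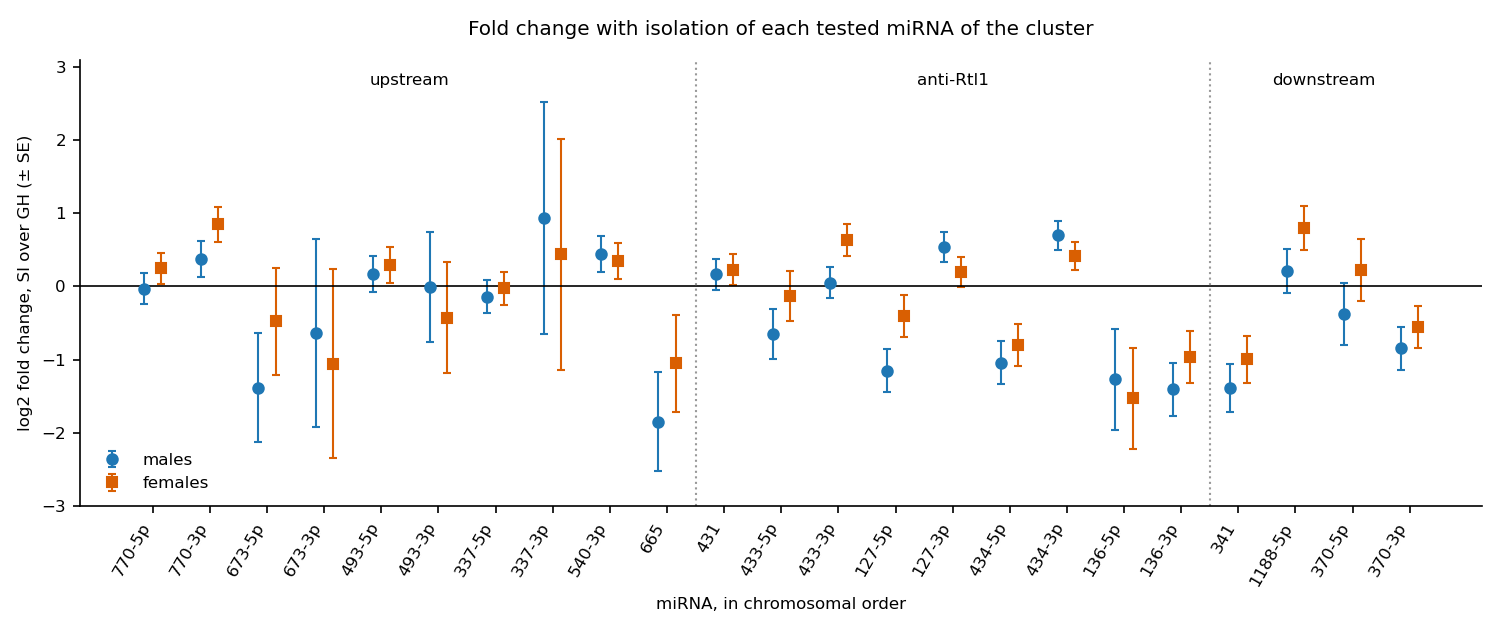
Log2 fold change of SI over GH rats with its SE for each of the 23 tested members, males as circles and females as squares, in the order of the genes along chromosome 6. Changes run from -1.85 (miR-665) to 0.94 (miR-337-3p, with an SE of 1.58) in males. In the anti-Rtl1 group the arms of miR-434, of miR-127 and of miR-433 lie on opposite sides of 0 in both sexes.

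By position, 2 of the 10 upstream members were called in the mean of both sexes (1 higher, 1 lower), as were 5 of the 9 anti-Rtl1 members (1 higher, 4 lower) and 2 of the 4 downstream members (both lower), where 17.6% of all miRNAs were called. In males the counts were 0 of 10, 4 of 9 and 1 of 4, where 4.0% of all were called. The neighbouring cluster that runs from miR-379 to miR-410 in the same domain had 13 of 59 tested miRNAs called in the mean (4 higher, 9 lower), 3 in males (all lower) and 0 in females by edgeR, where 13 had an unadjusted p under 0.05. The same 17.6% and 4.0% of all miRNAs are the background of these counts in the mean and in males. In females 0.40% of all miRNAs were called by edgeR and 20.8% had an unadjusted p under 0.05. The median log2 fold change of the neighbouring cluster was -0.31 in males and -0.24 in the mean, beside -0.14 and -0.08 for the 23 members.

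Single rats decided several of these calls. In males the call of miR-341 was lost without G16M, G18M or I15M (adjusted p up to 0.053), that of miR-136-3p without G16M, G18M, I15M, I17M or I20M (up to 0.073), and that of miR-127-5p without G18M, G19M, G20M, I15M, I17M or I20M (up to 0.080). Those of miR-434-5p and miR-434-3p in males were lost without any 1 of G16M, G18M, G19M, G20M, G21M, I15M, I17M, I20M and G12F, and also without I14F for the 5p arm and without I17F or I12F for the 3p arm (adjusted p up to 0.11 and 0.14). With the I17 rats exchanged, 2 members were called in males, miR-341 and miR-136-3p (2.2% of all miRNAs). In the mean of both sexes, 7 of the 9 calls held without any single rat. miR-665 lost its call without any 1 of the 5 GH males, I15M, I17M, I20M, G15F, G16F, I17F and I12F (adjusted p up to 0.071), and miR-136-5p without any 1 of the 10 males, G12F, G16F, G17F, I17F and I12F (up to 0.11).

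Without I16F and both I17 rats, 7 members were called in males and 7 in the mean of both sexes, beside 14.8% and 12.2% of all miRNAs. In males all 5 calls were kept and those of miR-370-3p (log2 -1.01, adjusted p = 0.031) and miR-136-5p (adjusted p = 0.048) were added. In the mean the calls of miR-770-3p (log2 0.41, adjusted p = 0.093) and miR-665 (log2 -1.10, adjusted p = 0.11) were lost. In females the log2 fold change went from -0.40 to 0.02 for miR-127-5p, from 0.20 to -0.03 for miR-127-3p and from -0.13 to 0.33 for miR-433-5p, so the female values of these 3 members rested on the omitted rats. The fold changes of the series also moved with base composition. Across the miRNAs with a known sequence, Spearman's rho of the log2 fold change with GC content was 0.13 in males and 0.32 in females, a description over miRNAs that share the same libraries. After a GC correction within each library, 6 members were called in males, 3 in females and 9 in the mean, beside 9.2%, 7.6% and 22.2% of all miRNAs.

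The balance of the arms was tested directly as the log2 ratio of 5p to 3p counts in each rat. The test was limma's, over 158 hairpins with both arms tested, 9 of them members. This ratio needs no scaling to library size. Depth can still move ratios with a scarce arm, through the pseudocount of 0.5 and the lowest listed count of 2. Median miRNA reads were 4983188 in GH males, 7290553 in SI males, 5276646 in GH females and 6998674 in SI females. In the mean of both sexes the ratio was called for 2 of the 9 member hairpins, miR-434 and miR-127, beside 10.1% of all hairpins. In males 0 of 9 were called by limma (0% of all hairpins), with 2 at an unadjusted p under 0.05. In females 0 of 9 were called (0% of all), with 1 at an unadjusted p under 0.05. The shares of all hairpins with such a p are not given. SI and GH males did not overlap in the ratio for 2 of 9 member hairpins, beside 12.7% of all, and females for 0 of 9, beside 3.80%.

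For miR-434, GH males had 21.4, 21.8, 22.9, 24.9 and 27.6 reads of 3p for each read of 5p, and SI males had 47.7, 54.0, 74.3, 123 and 136.7. The lowest SI male thus had more 3p reads per 5p read than the highest GH male. GH females had 16.5, 19.1, 20.2, 27.1 and 37.6 and SI females 30.6, 42.4, 45.5, 67.8 and 178 reads of miR-434-3p per read of 5p, with I10F alone inside the GH range. The log2 5p to 3p ratio of miR-434 differed by -1.56 ± 0.30 (SE) in the mean (adjusted p = 0.0059), by -1.76 ± 0.43 in males (adjusted p = 0.060) and by -1.36 ± 0.43 in females (adjusted p = 0.10). For miR-127, GH males had 7.74, 9.05, 9.57, 9.78 and 10.1 reads of 3p per read of 5p and SI males 19.7, 24.02, 26.5, 42.6 and 48.2. GH females had 8.87, 9.80, 11.6, 12.6 and 12.7 and SI females 9.34, 10.4, 12.3, 20.3 and 77.7 reads of miR-127-3p per 5p read, so that 3 SI females lay within the GH range and I16F far outside it. The ratio of miR-127 differed by -1.22 ± 0.32 in the mean (adjusted p = 0.029), by -1.72 ± 0.46 in males (adjusted p = 0.060) and by -0.71 ± 0.46 in females (adjusted p = 0.35). The call of miR-127 was lost without I15M, G12F or G17F (adjusted p up to 0.056). Without I16F and both I17 rats the differences in the mean were -1.18 for miR-434 (adjusted p = 0.0058) and -0.75 for miR-127 (adjusted p = 0.015), and that of miR-127 in females was 0.05.

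The hairpins of miR-433 and miR-770 had an unadjusted p under 0.05 in the mean without passing. miR-433 had a median of 63.5 reads of 3p per 5p read in GH males and 98.0 in SI males, 65.0 in GH females and 101 in SI females (log2 difference -0.88 ± 0.34, adjusted p = 0.10). miR-770 is read mostly from its 5p arm, with a median of 0.244 reads of 3p per 5p read in GH males and 0.360 in SI males, 0.201 in GH females and 0.338 in SI females (log2 difference -0.52 ± 0.22, adjusted p = 0.12). The ratio of miR-136 differed by -0.79 ± 0.70, that of miR-370 by 0.45 ± 0.30, that of miR-493 by 1.06 ± 0.79, that of miR-337 by 0.34 ± 1.24 and that of miR-673 by 0.23 ± 1.13 (adjusted p from 0.31 to 0.88). Of these, the values of miR-136 and miR-493 rested on I16F, without which they were -0.13 and 0.37. Without I16F and both I17 rats the 5 values were -0.23, 0.52, 0.28, -0.29 and 0.46 in the same order, and the difference of miR-673 in males went from -2.15 to -0.44. The less-read arm was lower relative to the more-read one in 4 of 9 member hairpins in males, 7 in females and 7 in the mean, beside 82, 102 and 90 of all 158 hairpins.

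**Figure D3:**
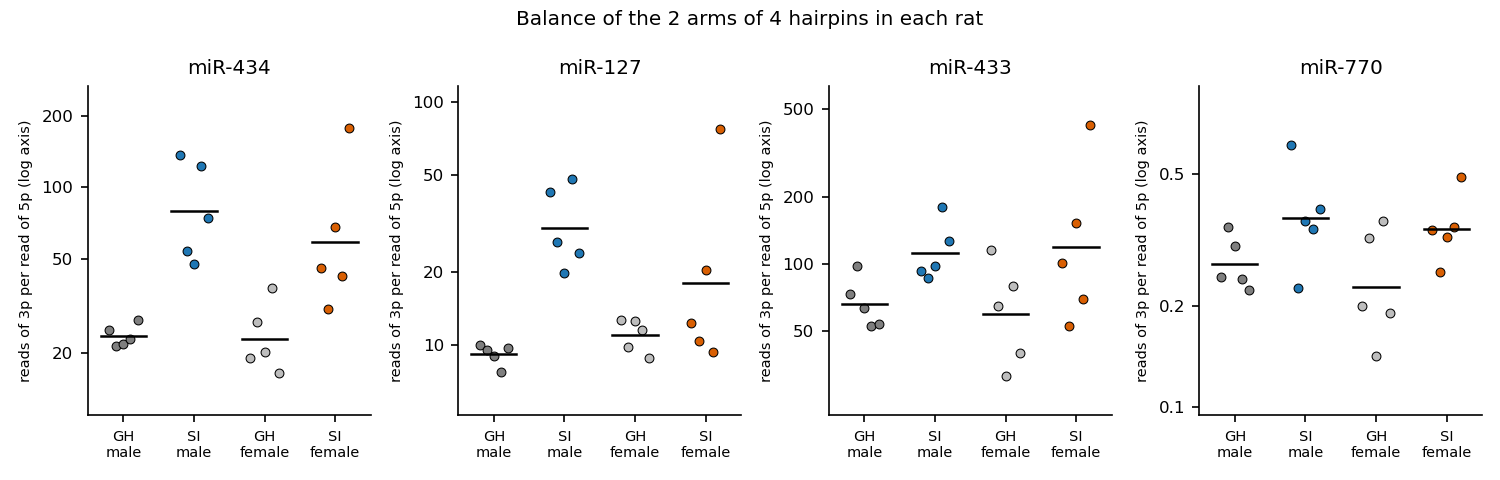
Reads of the 3p arm for each read of the 5p arm (log axes) in each rat for 4 member hairpins, one point a rat, with the geometric mean of each group of 5 as a bar. For miR-434 the GH males lie between 21.4 and 27.6 and the SI males between 47.7 and 136.7, and the highest female value in each panel is that of I16F.

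Reads of one miRNA differ at their ends, and these forms are called isomiRs. Several members began away from the reference 5′ end in a large share of reads, which changes the seed. Among members with at least 50 reads in every library, the pooled share was 64.0% for miR-136-3p, 57.6% for miR-770-3p and 53.8% for miR-127-5p. It was 22.6% for miR-341, 20.6% for miR-434-5p and 14.7% for miR-370-3p, and 1.08% for miR-434-3p. Below that minimum, 66.1% of miR-136-5p reads were extended at the 5′ end, most often by GG, and 56.9% of miR-337-3p reads were trimmed there. For miR-136-3p the most-read form lacks the first base, with 35.3% of its 123598 reads, beside 33.7% for the reference form. For miR-770-3p the most-read form carries 1 more base at the 5′ end and 3 more at the 3′ end than the 17 bases of the reference, with 17.4% of 131411 reads, and 98.3% of its reads run past the reference 3′ end. These forms are printed as deposited, with T for U and bases 2 to 8 in capitals, to be read against the RefSeq sequences above.
miR-136-3p, most-read form: aTCATCGTctcaaatgagtct
miR-136-3p, reference form: cATCATCGtctcaaatgagtct
miR-770-3p, most-read form: cGTGGGCCtgacgtggagctg
miR-770-3p, reference 5′ end: gTGGGCCTgacgtggagctg

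Of 17 members with at least 50 reads in every library, 0 were called for the shifted 5′ share by limma in the mean of both sexes (1.12% of 269 miRNAs were), and 1, miR-127-3p, had an unadjusted p under 0.05. In females its shifted share ran from 3.37% to 3.77% under GH and from 3.98% to 5.13% under SI. In males it ran from 3.15% to 4.19% under GH and from 3.94% to 4.71% under SI, which overlap. The adjusted p in the mean was 0.15. The share of all 269 miRNAs with such a p, or with females that separate like this, is not given, so neither has a background here. The shifted share of miR-136-3p was 64.8% ± 3.2 (SD) in GH males, 68.0% ± 3.3 in SI males, 63.7% ± 3.4 in GH females and 60.9% ± 3.6 in SI females. That of miR-770-3p was 57.0% ± 3.9, 55.5% ± 3.2, 61.5% ± 3.5 and 58.1% ± 3.1 in the same order. miR-341 varied most, from 4.41% to 72.9% over the rats. All 22 tested forms of miR-136-3p had a log2 fold change below 0 in the mean, as had all 13 of miR-434-5p and all 15 of miR-341. So had all 6 of miR-433-5p and all 6 of miR-673-5p, which were not called, and 15 of the 62 of miR-434-3p. Over all 669 tested member forms, 343 were below 0. The forms of a miRNA are parts of the reads summed for it, so their shared direction is no separate evidence for its change.

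**Figure D4:**
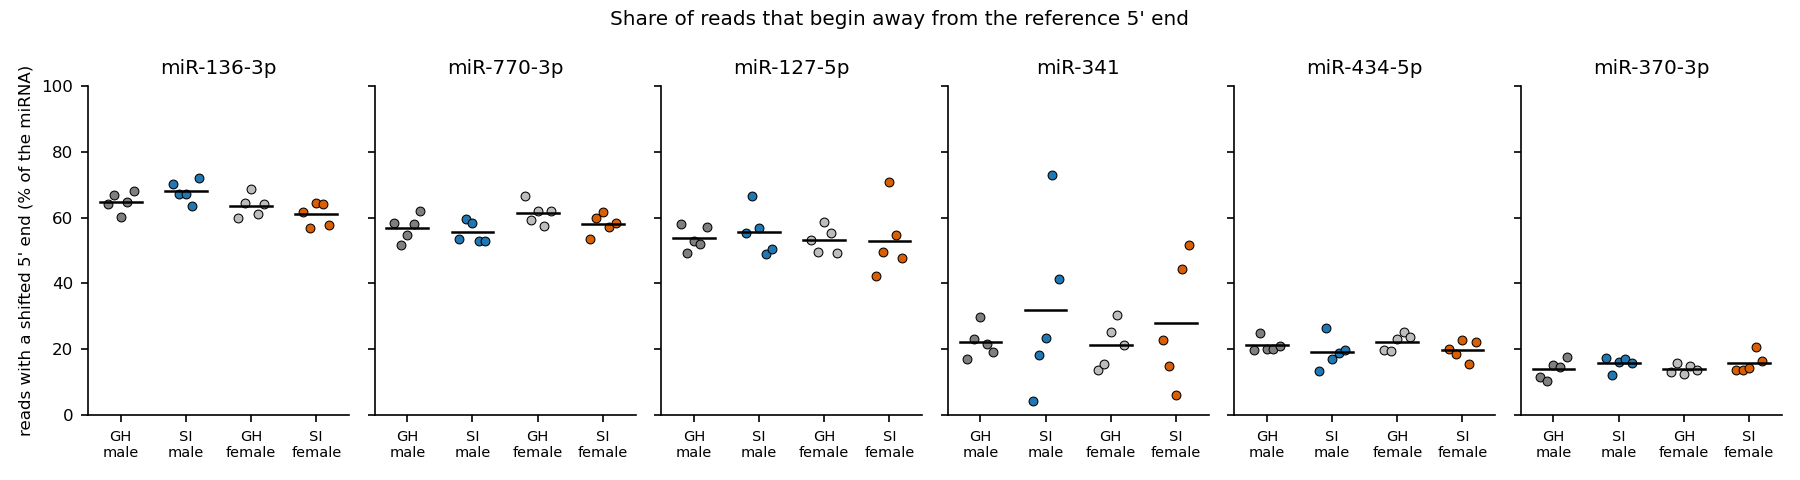
Percent of the reads of each of 6 members that begin away from the reference 5′ end, one point a rat, with the mean of each group of 5 as a bar. The groups overlap in every panel, and miR-341 has the widest spread, from 4.41% to 72.9%.

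Bases added to the 3′ end that the hairpin does not encode (non-templated additions) were frequent in several members. Among those with at least 50 reads in every library, the share was 52.6% of reads for miR-540-3p, 52.1% for miR-770-3p, 51.4% for miR-127-3p, 50.5% for miR-1188-5p, 48.5% for miR-770-5p and 31.3% for miR-433-3p, beside 1.36% for miR-434-3p. Below that minimum it was 63.4% for miR-673-5p, 63.1% for miR-337-3p and 34.1% for miR-665. The most frequent addition was T for miR-770-5p (25.0% of its reads), miR-770-3p (19.1%) and miR-127-3p (11.0%), A for miR-540-3p (22.7%), AA for miR-433-3p (9.60%) and AT for miR-1188-5p (13%). Of 17 members, 0 were called for the share of such additions by limma (0% of 269 miRNAs). Without a share over all miRNAs beside it, 2 members had an unadjusted p under 0.05. These were miR-370-3p, at 10.04% ± 2.8 in GH males, 12.9% ± 3.7 in SI males, 9.50% ± 2.3 in GH females and 13.8% ± 3.6 in SI females, and miR-770-3p, at 53.9% ± 2.6, 49.9% ± 2.3, 55.4% ± 4.7 and 51.5% ± 3.3 in the same order.

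Among single forms, 669 of the 10290 tested belonged to members. edgeR called 0 of them in males (0.00972% of all forms), 0 in females (0% of all) and 1 in the mean of both sexes (0.253% of all), and 65, 56 and 84 of the member forms had an unadjusted p under 0.05. These are 9.72%, 8.37% and 12.6% of the member forms, beside 9.11%, 9.22% and 14% of all forms. The called form was the reference form of miR-370-3p, the RefSeq sequence printed above, with a log2 fold change of -1.27 ± 0.21 in the mean (adjusted p = 0.018), -1.41 ± 0.29 in males and -1.12 ± 0.29 in females. Without I16F and both I17 rats it was at -1.14 in the mean (adjusted p = 0.041). This is a larger fall than the -0.70 of miR-370-3p as a whole, and the reference form made up 59.4% ± 3.5 (SD) of miR-370-3p reads in GH males, 46.2% ± 10 in SI males, 60.5% ± 4.0 in GH females and 45.9% ± 12.4 in SI females. The lowest shares were 27.5% in I16F and 32.8% in I17M. The reference forms of miR-434 each moved in the direction of their whole arm, 5p down and 3p up. In males that of miR-434-5p was at 148 ± 34.1 CPM in GH and 87.6 ± 20.2 in SI rats, and that of miR-434-3p at 10068 ± 826 and 15669 ± 3969.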

How the data were processed

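Small RNA of adBNST punches was sequenced from 20 rats (NEXTflex Small RNA-Seq kit, Illumina HiSeq). The authors trimmed adapters with cutadapt, aligned collapsed reads to rat miRBase hairpins with seqbuster in the bcbio-nextgen pipeline, and deposited, for each library, the raw count of every distinct sequence with its miRNA and its differences from the reference. FastQC and STAR are named in the submitters' processing notes, without versions. Adapter ligation and PCR favour some sequences and ends, so levels of different miRNAs are comparable only within this protocol.

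Counts were summed to miRNAs, and miRNAs with at least 10 counts in at least 5 libraries were tested in 1 edgeR quasi-likelihood model of the 4 groups (TMM normalization, edgeR 4.0.16 in R 4.3.3), with Benjamini-Hochberg adjustment over all tested miRNAs. CPM values use the TMM effective library size. The mean of both sexes is the average of the male and female contrasts. Log2 5p to 3p ratios (pseudocount 0.5) and log-odds of end shares (members with at least 50 reads in every library) were tested with limma 3.58.1. DESeq2 1.42.0 and limma voom were alternatives. The p-values measure the spread between rats, with 1 library each. The labels name no cage or litter, so neither was in the model, and GH rats that shared one were counted as separate rats. Exact permutation tests ran over all 252 assignments of 5 against 5, two-sided. Rats were grouped by their labels, including the I17 rats whose file names give the other sex. No pair of libraries held like counts (lowest chi-square per degree of freedom 84.9 over 190 pairs). The fits were tested on simulated data.

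Values in every rat are given for at most 14 members, those with an unadjusted p under 0.05 in males, females or the mean, with the other arm of their hairpin, lowest p first. The members and all gene lists were chosen with earlier results of these data known. Sequences are from RefSeq (GRCr8) or from the deposited reads. Depth was 3428930 to 11383055 miRNA reads a library.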

Additional observations from a re-analysis of the deposited data

Results flagged for a closer look

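Of 92 groups of 5 rats tested for a sample far from the other 4 (gap to the nearest value over the range above 0.71), 7 had one, and chance alone gives about 1 in 20. On the scale of log2 normalized counts, miR-341 was low in G16F at 9.23, where the nearest GH female was at 10.12. miR-434-5p was low in G21M at 11.36 (nearest GH male 11.68), and miR-370-3p was low in I10F at 11.20 (nearest SI female 11.51). I16F held 3 of the 7. Its log2 normalized count of miR-136-5p was 0 (nearest SI female 7.56), that of miR-127-3p was 16.31 (nearest 15.53), and its log2 5p to 3p ratio of miR-136 was -10.27 (nearest -4.58). The log2 5p to 3p ratio of miR-673 was -6.63 in I17M, where the nearest SI male was at 1.27. Without I16F the log2 arm ratio difference of miR-136 between SI and GH rats went from -1.65 to -0.33 in females, and without I17M that of miR-673 went from -2.15 to -0.44 in males.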

How the results depend on the processing

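The number of members called in males was 5. It was 8 with limma voom and sample quality weights (17.4% of all miRNAs), 9 with only the groups compared in the fit (17.8% of all), 2 with the I17 rats exchanged, and between 0 and 9 when each rat was left out in turn. The count fell by over 1.5 times without any 1 of the 5 GH males, I15M, I17M, I20M and G12F, and rose by over 1.5 times without I16F. Omissions that moved it less are not listed here. In females the count of 0 became 6 with DESeq2's Wald test, 4 with at least 10 counts required in every library (13% of all) and 3 with the GC correction. It ran from 0 to 6 over the omissions, with 6 without I10F. The share over all miRNAs is not given for single omissions, so these counts, in males too, have no background beside them. In the mean of both sexes 9 members were called. Of the other settings, only the fit with a replicate block in 10 rats moved that count by over 1.5 times. The same 10 rats without the block also gave 0, so the change cannot be credited to the block.

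The animal numbers were a possible pairing. Deviations of same-numbered rats correlated by -0.10, -0.01, -0.08, 0.09 and -0.30 in the 5 pairs. So few pairs cannot decide whether same-numbered rats share a litter or batch, and the main fits used no pairing. With the animal number as a replicate block, in the 10 rats whose number occurs in both housing groups, 0 members were called in males and 0 in the mean. The same 10 rats without the block gave 0 in males, 2 in females and 0 in the mean.

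The arm ratio was called for 0 member hairpins in males. It was called for 2 with a pseudocount of 5, 2 with only the groups compared and 2 without I16F and both I17 rats, an omission chosen after seeing the data, beside 3.8%, 9.49% and 10.8% of all hairpins. Leaving out each rat gave 0 to 2 in males (more without I22M, I10F or I16F), 0 to 1 in females (1 without I10F) and 1 to 3 in the mean (1 without I15M, and changed also without G12F or G17F). Member isomiRs called in the mean numbered 4 with DESeq2's size factors, 25 with at least 10 counts in every library and 4 without I16F and both I17 rats (0.369%, 12.5% and 0.35% of all forms), and 1 to 12 over single omissions (more without I19M, I14F, I10F or I16F). In males they numbered 8 with the stricter filter and 8 without those 3 rats (1.41% and 0.603% of all forms), and 0 to 11 over single omissions (11 without I16F). For single omissions the shares over all hairpins and all forms are not given, so those counts have no background beside them.

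Several values changed sign, none of them past the threshold with all rats. In females miR-127-3p was at -0.013 with limma voom and -0.035 without the 3 rats, miR-127-5p at 0.019 without them, miR-433-5p at 0.021 with limma voom, 0.14 with the GC correction and 0.33 without the 3 rats (-0.31 to 0.13 over single omissions), and miR-370-3p at 0.065 with the block (all log2 fold changes). In males miR-433-3p was at -0.0036 with reads of a single miRNA, -0.21 with the block and -0.023 without the 3 rats (-0.032 to 0.16 over omissions), miR-540-3p at -0.013 with the block and miR-1188-5p at -0.025 without the 3 rats. Log2 arm ratio differences changed sign for miR-337 in the mean (-0.11 with a pseudocount of 5, -0.31 without mismatched reads, -0.29 without the 3 rats, and -0.22 to 0.73 over omissions), miR-673 in the mean (-0.25 with a pseudocount of 5, and -0.14 to 1.08 over omissions), miR-673 in males (0.33 with the I17 rats exchanged) and miR-127 in females (0.050 without the 3 rats). Over single omissions in males they ran from -1.62 to 0.28 for miR-337, from -0.053 to 0.17 for miR-136 and from -0.14 to 0.46 for miR-493. The cause of these changes was not tested. Both arms of miR-673, miR-337-3p and miR-493-3p had 0 reads in some libraries.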
